A study of Mus musculus with 16 samples.

Results

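Cyclic AMP (cAMP) signaling was followed through 9 genes in mouse rotator cuff muscle: the adenylyl cyclases Adcy9 and Adcy6, the phosphodiesterases Pde4a, Pde4b and Pde4d, the protein kinase A subunits Prkaca and Prkar1a, and the transcription factors Creb1 and Crem. The genes were selected by symbol from a table of 11710 genes; all 9 were in it and all 9 passed the filter on low counts. Adcy9 and Crem were chosen for their change after surgery, so their values are given as a description, without a test, and only the other 7 genes were tested.

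The study measured messenger RNA in 16 libraries in 4 groups of 4. The groups were unoperated and operated muscle of C57BL/6J mice (BL6), and unoperated and operated muscle of MRL/MpJ mice (MRL), an inbred strain known for its unusual wound repair. Operated muscle had its tendon cut (tenectomy) and its nerve supply severed (denervation), so both injuries are present in every operated library and their effects cannot be told apart. The sample labels name the supraspinatus muscle and the series description the infraspinatus, so the tissue is called rotator cuff muscle here. The labels used here give no transgene or drug, no age or sex, and no time between surgery and collection. They also do not say whether each library came from a separate animal, so the p-values measure the spread between these samples.

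In cells, adenylyl cyclases make cAMP from ATP when receptors act on them through stimulatory G proteins, and phosphodiesterases break it down. Protein kinase A is held inactive by its regulatory subunits until they bind cAMP and release the catalytic subunits. The kinase phosphorylates enzymes and channels, and in the nucleus the factor CREB, which then switches on target genes. In skeletal muscle this pathway is best known as the route by which adrenaline acts on glycogen breakdown and muscle mass.

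Libraries held 24323862 to 43552964 counts, and 3 counts, taken as the lowest level that can be read, correspond to 0.0689 to 0.123 CPM (a gene's counts scaled to a library of 1000000). All levels of the 9 genes were far above that. Summed myofiber markers (Ckm, Acta1, Myh4, Myh1, Tnnt3 and Mylpf) reached at least 49269 CPM in every library, so the markers of the labelled tissue were present throughout. A pair of MRL libraries stood between the groups. On the first principal component, which held 51.8% of the variance of log2 CPM, unoperated MRL replicate 1 lay at -7.49 (the other 3 unoperated MRL libraries at -44.9 to -38.7) and operated MRL replicate 4 at 13.4 (the other 3 operated MRL libraries at 25.9 to 54.8). Operated BL6 replicate 4 lay at the far end, at 86.1. Mitochondrial transcripts made up 11.8% of counts in operated MRL replicate 4 and 20.1% to 24.9% in the other 3 operated MRL libraries. Why these libraries stand apart was not tested, and the MRL surgery results of the 9 genes and of the named pathway genes are also given without both in-between libraries.

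Adcy9, a membrane-bound adenylyl cyclase, is encoded on the minus strand at chr16:4287529-4420498 (GRCm38; ENSMUSG00000005580). It read 46.8, 36.8, 51.7 and 52.01 CPM in the 4 unoperated BL6 libraries and 3.55, 3.64, 2.86 and 3.099 CPM in the 4 operated ones. The operated BL6 libraries were close to each other and all far below the unoperated ones. In MRL muscle, Adcy9 read 16.8, 37.01, 47.9 and 31.2 CPM without surgery and 3.33, 4.68, 3.12 and 15.7 CPM after it. Here, too, the groups did not overlap, but the lowest unoperated library (replicate 1) and the highest operated library (replicate 4) nearly met; they are the in-between libraries named above. The fitted log2 fold change after surgery was -3.83 in BL6 (95% interval -4.82 to -2.84), a level 14.2-fold lower, and -2.28 in MRL (95% interval -3.20 to -1.37), a level 4.87-fold lower. The MRL value became -3.38 without both in-between libraries, and the difference between the strains' log2 changes went from 1.55 to 0.46. Since the gene was chosen for this change, nothing further is read from it. In bulk muscle, fewer cells that express a gene and less RNA in each such cell cannot be told apart.

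**Figure D1:**
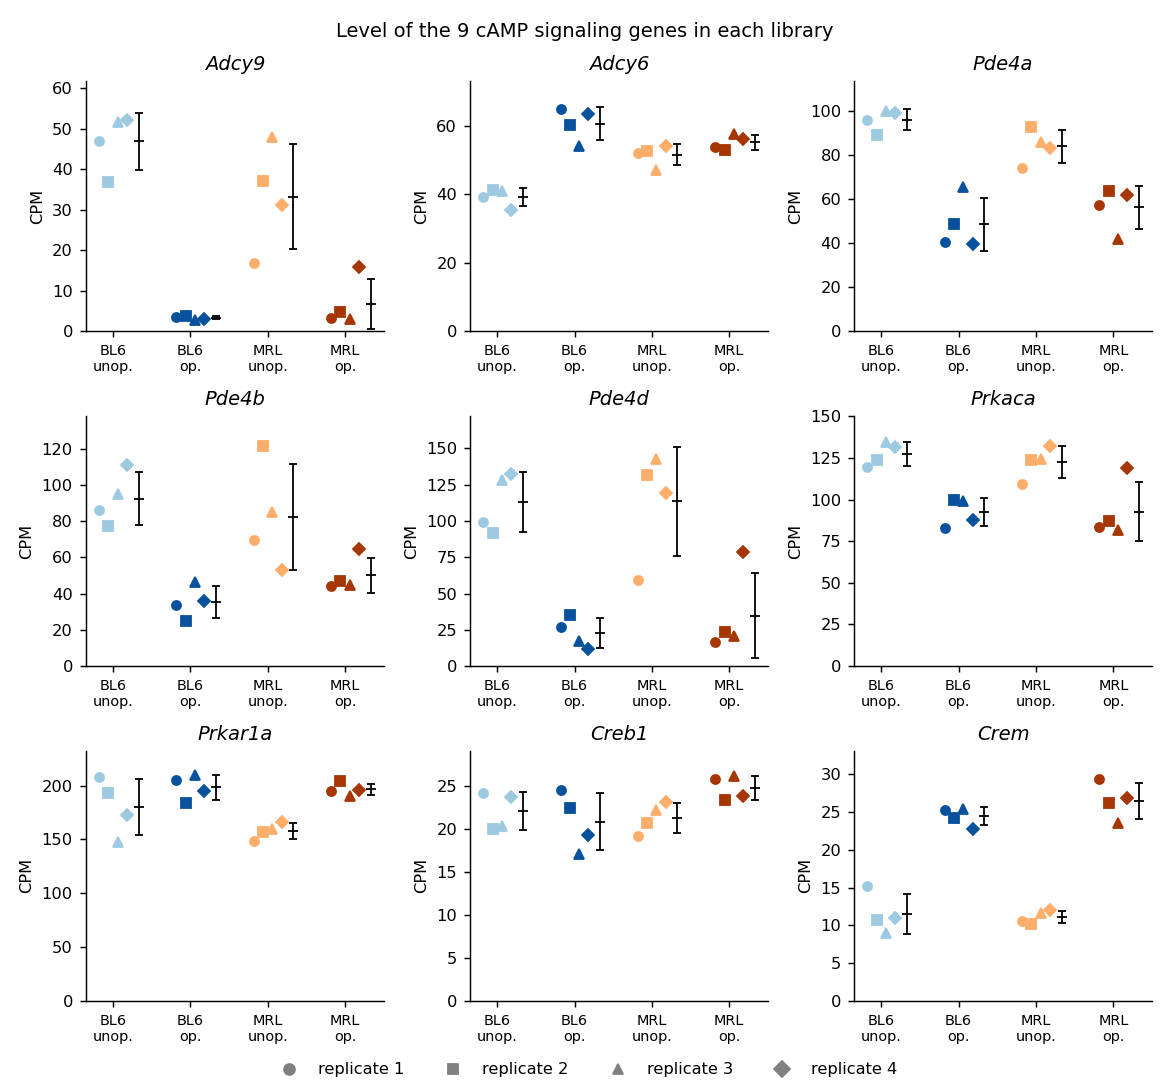
Level (CPM, each axis from 0) of the 9 genes in all 16 libraries; symbols mark the replicate number, and black bars the mean and SD of the 4 libraries of a group. Adcy9 and the 3 PDE4 genes sit lower and Crem higher in operated muscle of both strains, and operated MRL replicate 4 (dark orange diamond) lies apart from its group for Adcy9 (15.7 CPM), Pde4d (78.5 CPM) and Prkaca (118.8 CPM).

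Adcy6, another membrane-bound cyclase, which calcium inhibits, went the other way in BL6 muscle (chr15:98589973-98610076, minus strand; ENSMUSG00000022994). It read 39.1, 41.3, 40.9 and 35.4 CPM in unoperated and 64.9, 60.3, 53.98 and 63.3 CPM in operated BL6 libraries, with every operated library above every unoperated one. The rise was 0.63 on the log2 scale (SE 0.0843, adjusted p = 3.11e-05, edgeR quasi-likelihood test with Benjamini-Hochberg adjustment over all genes, as for all adjusted p-values unless another tool is named). Unoperated MRL muscle was already at 52.1, 52.7, 47.2 and 54.2 CPM, above all unoperated BL6 libraries, and operated MRL muscle read 53.8, 52.96, 57.7 and 56.2 CPM. In MRL the groups overlapped, and the log2 difference of 0.10 did not pass the test (95% interval -0.08 to 0.28, adjusted p = 0.349; 0.10 and 0.422 without both in-between libraries). The authors' deposited table gives log2 fold changes of 0.62 in BL6 and 0.11 in MRL for Adcy6.

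Among all 8 cyclase genes in the table, the 3 that were most abundant per length of exon in unoperated BL6 muscle were Adcy2, Adcy9 and Adcy6. On the scale of CPM per kilobase of exon, Adcy9 made up 21.5% ± 1.69 (SD, n = 4) of the summed cyclase transcripts in unoperated BL6 libraries and 2.17% ± 0.203 in operated ones. In MRL its share was 17.8% ± 5.82 and 4.598% ± 3.78. Adcy6 took the opposite course, with shares of 14.0% and 30.6% in BL6 and 21.7% and 29.9% in MRL, before and after surgery. Adcy2, the most abundant of the cyclases in unoperated muscle, went from a share of 52.4% to 23.9% in BL6 and from 44.01% to 25.2% in MRL, and Adcy4 went from 7.84% to 30.7% and from 9.59% to 26.6%. The sum of the 8 cyclases was 41.8 ± 3.76 and 29.2 ± 1.58 CPM per kilobase in BL6, and 35.3 ± 3.17 and 27.3 ± 2.77 in MRL (SD, n = 4 each). A share depends on all members of its family, so these percentages describe the makeup of the transcripts and were not tested. Summed markers of blood vessel lining (Pecam1, Cdh5, Kdr and Tek) were 252 to 351 CPM in unoperated and 497 to 629.7 CPM in operated BL6 libraries, and 190.8 to 263 and 268 to 626 CPM in MRL. Their part in the makeup of the cyclases was not tested.

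**Figure D2:**
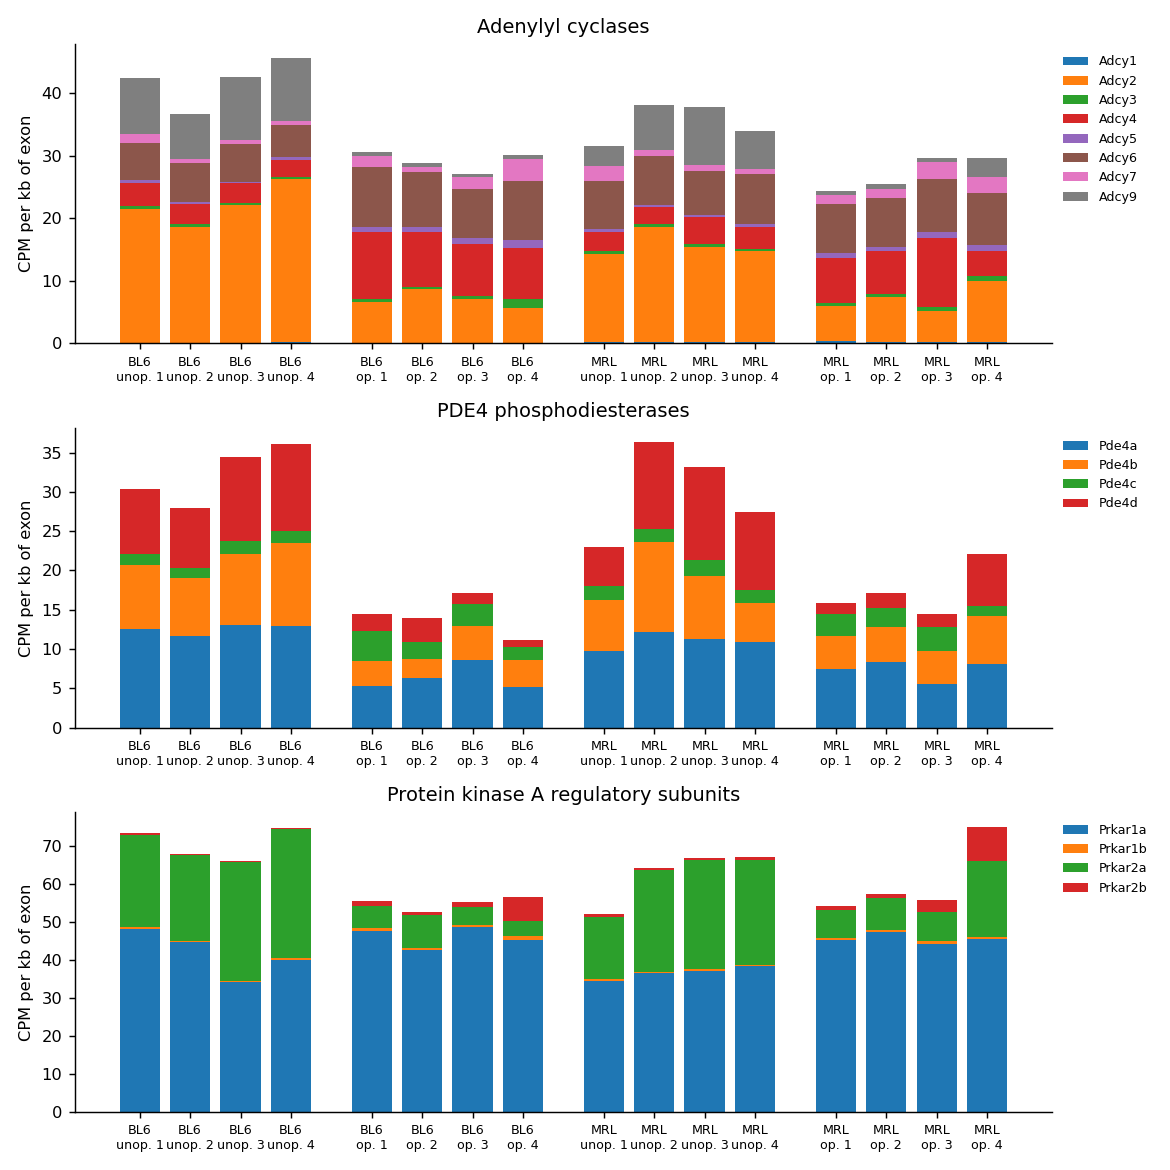
Summed CPM per kilobase of exon of the adenylyl cyclases, the PDE4 phosphodiesterases and the regulatory subunits of protein kinase A in each library, stacked by gene (bars start at 0). Operated bars other than MRL replicate 4 show little Adcy9 (grey, top panel), short Pde4d segments (red, middle panel) and a smaller Prkar2a segment (green, bottom panel) over a similar Prkar1a segment; in operated MRL replicate 4, Adcy9 (3.03) and Prkar2a (20.1) are near or above unoperated MRL replicate 1 (3.23 and 16.3 CPM per kilobase).

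The PDE4 enzymes are the cAMP-specific phosphodiesterases that rolipram inhibits, and the 3 tested here fell after surgery in both strains. Pde4d (chr13:108449948-109953461, plus strand; ENSMUSG00000021699) read 99.5, 91.6, 128 and 132 CPM in unoperated and 27.1, 35.4, 17.2 and 11.8 CPM in operated BL6 libraries. These groups lay far apart, and the log2 fold change was -2.31 (SE 0.465, adjusted p = 0.00055), a 4.95-fold lower level. In MRL it read 59.4, 132, 143 and 119 CPM without surgery and 16.5, 23.6, 20.4 and 78.5 CPM after it. The MRL groups overlapped, with unoperated replicate 1 below operated replicate 4. The MRL log2 fold change was -1.70 (SE 0.454, adjusted p = 0.00854), and -2.70 (adjusted p = 2.87e-05) without both in-between libraries.

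Pde4a (chr9:21165714-21213248, plus strand; ENSMUSG00000032177) separated the groups in both strains. Its level was 95.8, 89.4, 100.03 and 99.4 CPM in unoperated and 40.7, 48.7, 65.7 and 39.7 CPM in operated BL6 muscle, and 74.2, 92.6, 85.8 and 83.3 CPM without and 57.4, 63.7, 42.00 and 61.8 CPM with surgery in MRL. The log2 fold change was -0.98 in BL6 (SE 0.158, adjusted p = 0.000105) and -0.58 in MRL (SE 0.157, adjusted p = 0.00927; -0.68 and 0.00556 without both in-between libraries). Pde4b (chr4:102087543-102607259, plus strand; ENSMUSG00000028525) read 86.3, 77.5, 95.1 and 111 CPM in unoperated and 33.9, 24.8, 46.2 and 35.9 CPM in operated BL6 muscle, a fall of 1.39 on the log2 scale (SE 0.235, adjusted p = 0.000146). In MRL its values were 69.4, 122, 85.1 and 53.1 CPM without and 43.97, 46.9, 44.8 and 64.6 CPM with surgery, and unoperated replicate 4 lay within the range of the operated group. The MRL fall of 0.72 passed the test (SE 0.232, adjusted p = 0.0212), but not without unoperated replicate 2, the highest library (-0.47, adjusted p = 0.0971), nor without operated replicate 1 (adjusted p = 0.0598) or 3 (adjusted p = 0.0623). With total counts alone in place of TMM scaling it was also lost (-0.65, adjusted p = 0.067). Without both in-between libraries the log2 fold change was -0.94 (adjusted p = 0.00826).

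Summed over the family and per kilobase of exon, PDE4 transcripts went from 32.2 ± 3.72 to 14.2 ± 2.43 CPM in BL6 and from 30.0 ± 5.96 to 17.4 ± 3.32 CPM in MRL (SD, n = 4). Pde4d held 29.0% of the sum in unoperated and 13.5% in operated BL6 muscle, and 31.0% and 15.4% in MRL. Pde4c, the least abundant of the family in unoperated muscle, was higher after surgery in BL6. It read 8.05, 7.204, 9.49 and 8.52 CPM in unoperated and 20.9, 12.4, 15.3 and 9.16 CPM in operated BL6 libraries, a rise of 0.79 on the log2 scale (adjusted p = 0.00947), and differed by 0.46 in MRL, where the test was not passed (adjusted p = 0.132). Without both in-between libraries the MRL difference was 0.65 (adjusted p = 0.0281). Summed myofiber markers were 109689 to 146718 CPM in unoperated and 49269 to 126585 CPM in operated BL6 libraries, and 98088 to 110775 and 67339 to 86851 CPM in MRL. Their part in the lower PDE4 levels was not tested.

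The promoters of Adcy9, Pde4a, Pde4b and Prkaca are shown because these genes were lower after surgery in both strains and because each carries the core of the element that CREB binds close upstream of a start site. Only windows with a match are printed, and Adcy9 was itself chosen for its fall. The sequences therefore show where matches lie and not how common they are. Sequences are from RefSeq (GRCm38.p6), the 150 bases before a transcript start, 5′ to 3′ on the gene's strand, with the half-site TGACG or its reverse complement in capitals. The Adcy9 stretch is chr16:4420499-4420648 on the minus strand. On the plus strand are the Pde4a stretch chr9:21183951-21184100, the Pde4b stretch chr4:102421405-102421554 and the Prkaca stretch chr8:83972828-83972977. The Pde4a and Pde4b starts used are internal ones, downstream of the first annotated base of the gene (chr9:21165714 and chr4:102087543).
Adcy9: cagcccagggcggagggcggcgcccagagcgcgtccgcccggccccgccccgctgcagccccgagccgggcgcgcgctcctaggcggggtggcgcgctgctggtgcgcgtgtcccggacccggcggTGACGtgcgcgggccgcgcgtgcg
Pde4a: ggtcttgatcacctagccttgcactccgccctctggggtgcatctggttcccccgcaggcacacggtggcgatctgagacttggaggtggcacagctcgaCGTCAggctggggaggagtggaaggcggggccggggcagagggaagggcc
Pde4b: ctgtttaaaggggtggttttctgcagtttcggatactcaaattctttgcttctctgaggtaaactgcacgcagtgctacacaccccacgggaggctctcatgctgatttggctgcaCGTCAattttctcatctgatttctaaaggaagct
Prkaca: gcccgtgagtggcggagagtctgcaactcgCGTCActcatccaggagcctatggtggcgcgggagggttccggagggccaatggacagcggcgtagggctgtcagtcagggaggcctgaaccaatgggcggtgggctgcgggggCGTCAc
The half-site starts 24 bases before the start in Adcy9, 50 bases before it in Pde4a, 34 bases before it in Pde4b, and 120 and 6 bases before it in Prkaca. Both strands of windows from 250 bases before to 50 bases after each start were searched. Of 18 windows for 7 of the 9 genes, 7 held the half-site, and so did 20.8% of all 32851 windows of this length. The full palindrome TGACGTCA, which contains the half-site on both strands, was in 2 windows, which overlap and hold the same site of Prkar1a, and in 1.79% of all windows. Several of the 7 windows with a half-site belong to Prkar1a, and 2 of those overlap, so the 7 are not separate cases. The windows of Creb1 and Pde4d held neither motif. A match describes the letters only; no measurement of CREB binding is part of these data.

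Prkaca encodes the main catalytic subunit of protein kinase A (chr8:83972993-83996443, plus strand; ENSMUSG00000005469). It read 119.6, 124, 135 and 132 CPM in unoperated and 82.7, 99.4, 99.1 and 87.8 CPM in operated BL6 libraries, with no overlap. The fall was 0.47 on the log2 scale (SE 0.121, adjusted p = 0.00346). In MRL it read 109, 124, 125 and 132 CPM without surgery and 83.5, 87.3, 81.7 and 119 CPM after it, where operated replicate 4 lay inside the unoperated range. The MRL log2 fold change was -0.40 (SE 0.121, adjusted p = 0.0159), and -0.59 (adjusted p = 0.000249) without both in-between libraries. It missed the threshold without operated MRL replicate 1 (adjusted p = 0.0523) or 3 (adjusted p = 0.0579). With total counts alone in place of TMM scaling, the adjusted p was 0.0632 in BL6 and 0.0875 in MRL.

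Prkar1a, the type I alpha regulatory subunit (chr11:109649405-109669656, plus strand; ENSMUSG00000020612), had a higher mean after surgery in both strains, past the threshold in MRL. In BL6 it read 208, 193, 148 and 173 CPM before and 206, 184, 209.5 and 195 CPM after surgery; the groups overlapped and the log2 difference of 0.14 did not pass (95% interval -0.09 to 0.36, adjusted p = 0.257). In MRL every operated library, at 195, 204, 191 and 196 CPM, lay above every unoperated one, at 149, 157, 160.1 and 166 CPM. The rise was small, 0.31 (SE 0.106, adjusted p = 0.0252). It missed the threshold without both in-between libraries (0.29, adjusted p = 0.0527), without unoperated replicate 2 (adjusted p = 0.0588), and without operated replicate 1 (adjusted p = 0.0503) or 2 (adjusted p = 0.0589). Total counts alone gave an adjusted p of 0.0672.

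Among the regulatory subunits, Prkar1a held 59.3% ± 7.54 of the summed transcripts per kilobase in unoperated and 83.7% ± 3.81 in operated BL6 libraries, and 58.9% ± 4.94 and 76.4% ± 10.8 in MRL (SD, n = 4). The counterpart was Prkar2a, the type II alpha subunit, whose share went from 39.9% to 10.7% in BL6 and from 39.4% to 17.1% in MRL. Prkar2a itself read 155, 144, 199 and 217 CPM before and 36.5, 56.01, 30.9 and 25.4 CPM after surgery in BL6, a fall of 2.27 on the log2 scale (SE 0.334, adjusted p = 5.85e-05). In MRL it read 104, 172, 184 and 176 CPM without and 46.3, 53.7, 48.04 and 128 CPM with surgery, a fall of 1.203 (adjusted p = 0.00878), and of 1.84 without both in-between libraries (adjusted p = 4.97e-05).

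Crem encodes activators and repressors of the CREB family, among them the inducible repressor ICER, and the counts per gene do not tell these products apart (chr18:3266048-3337748, minus strand; ENSMUSG00000063889). It read 15.2, 10.7, 9.04 and 10.9 CPM in unoperated and 25.3, 24.2, 25.5 and 22.8 CPM in operated BL6 libraries, and 10.6, 10.2, 11.6 and 12.03 CPM without and 29.3, 26.2, 23.6 and 26.8 CPM with surgery in MRL. In both strains every operated library lay above every unoperated one, and operated MRL replicate 4 was within its group, at 26.8 CPM. The fitted log2 fold change was 1.09 in BL6 (95% interval 0.81 to 1.37) and 1.25 in MRL (95% interval 0.97 to 1.53), levels 2.13-fold and 2.38-fold higher. Without both in-between libraries the MRL value was 1.23. The gene was chosen for this change, so no test is attached to it.

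Creb1, the founding member of the family, read 24.2, 20.1, 20.3 and 23.7 CPM in unoperated and 24.6, 22.4, 17.1 and 19.3 CPM in operated BL6 muscle (chr1:64532645-64604548, plus strand; ENSMUSG00000025958). The BL6 groups overlapped, with a log2 difference of -0.08 (95% interval -0.32 to 0.16, adjusted p = 0.523). In MRL it read 19.2, 20.7, 22.2 and 23.2 CPM without and 25.8, 23.4, 26.2 and 23.8 CPM with surgery; these groups did not overlap, yet the log2 difference of 0.22 did not pass (95% interval -0.02 to 0.46, adjusted p = 0.118; 0.19 and 0.217 without both in-between libraries). Per kilobase of exon, Atf1, the remaining factor of the family, was the most abundant of the 3 in unoperated muscle, with 67.5% of their sum in BL6 and 68.5% in MRL. After surgery Atf1 held 38.1% in BL6 and 46.8% in MRL, and Crem went from 17.7% to 45.4% in BL6 and from 17.3% to 37.9% in MRL. Atf1 fell by 1.055 on the log2 scale in BL6 (adjusted p = 0.000160), and its difference of -0.44 in MRL did not pass (adjusted p = 0.0537; -0.70 and 0.00243 without both in-between libraries).

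Of the 7 tested genes, 5 passed after surgery in BL6: Adcy6 was higher, and Pde4a, Pde4b, Pde4d and Prkaca were lower. In MRL 5 passed as well, with Prkar1a higher and the same 4 lower. Surgery moved much of the transcriptome. Of 11709 genes tested, 67.9% passed in BL6 (35.1% higher, 32.8% lower) and 45.0% in MRL (22.3% higher, 22.7% lower). A count of 5 in 7 is thus near the background in BL6. The MRL count was not stable, so no result about these genes is read from it. It was 2 of 7 without operated replicate 1, and 3 without unoperated replicate 2 or operated replicate 3. Without both in-between libraries it was 4, where 54.7% of all genes passed. With total counts alone it was 2, where 33.5% passed. Groups did not overlap in 56.8% of all genes in BL6 and 33.7% in MRL. The median log2 fold change of the 7 genes was -0.47 in BL6 and -0.40 in MRL, against 0.04 and 0.01 for all genes.

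**Figure D3:**
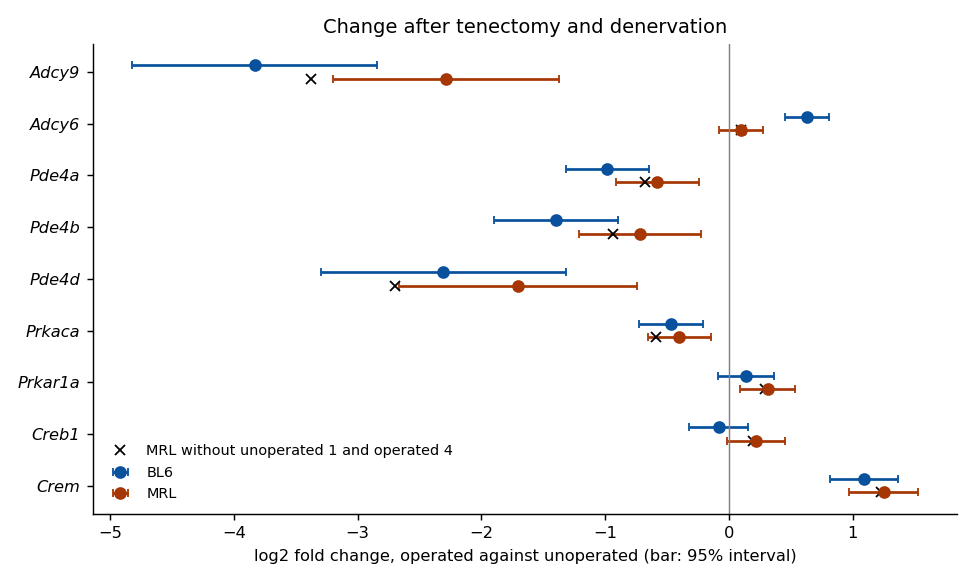
Log2 fold change of the 9 genes after surgery in BL6 (blue) and MRL (orange), with 95% intervals; crosses give the MRL value without unoperated replicate 1 and operated replicate 4. Intervals of Pde4a, Pde4b, Pde4d and Prkaca lie below 0 in both strains, and the crosses of Adcy9 (-3.38) and Pde4d (-2.70) lie further from 0 than the MRL points (-2.28 and -1.70).

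The test of the difference between the strains' surgery effects (the interaction) passed for none of the 7 genes by edgeR or by limma with voom, with 1 in edgeR at an unadjusted p under 0.05; it passed for 0.248% of all genes. That gene was Adcy6, with an interaction of -0.53 (SE 0.119, adjusted p = 0.0782), that is, a smaller change in MRL. DESeq2 put it at -0.55 (adjusted p = 0.000611), and over the alternatives its adjusted p ranged from 0.000611 to 0.259. For the remaining 6 genes the adjusted p of the interaction was between 0.322 (Pde4b, 0.68, 95% interval -0.02 to 1.37) and 0.858 (Prkaca, 0.07, 95% interval -0.30 to 0.43). The intervals are wide for Pde4d (-0.73 to 1.94), so a strain difference in its fall was not detectable at this spread.

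Between the strains without surgery, Adcy6 was the 1 gene of the 7 that passed, higher in MRL by 0.40 on the log2 scale (SE 0.0841, adjusted p = 0.0054), where 10.4% of all genes passed. Every unoperated MRL library (lowest 47.2 CPM) lay above every unoperated BL6 library (highest 41.3 CPM). The remaining 6 had log2 differences from -0.20 (Pde4a) to 0.01 (Pde4d). In operated muscle none of the 7 passed by edgeR, DESeq2 or limma with voom, where by edgeR 12.9% of all genes did; 2 had an unadjusted edgeR p under 0.05, Creb1 (0.25, adjusted p = 0.164) and Pde4b (0.51, adjusted p = 0.172), both higher in MRL.

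Within groups, the genes did not all vary together. Deviations of log2 CPM from the group means over the 16 libraries correlated most for Adcy9 with Pde4d (r = 0.89) and with Prkaca (r = 0.81), for Pde4d with Prkaca (r = 0.78), and for Crem with Prkar1a (r = 0.78). For Adcy9 with Crem the value was 0.07. These values describe 16 points that share libraries, and the in-between MRL libraries weigh in them: operated MRL replicate 4 was high within its group for Adcy9, Pde4b, Pde4d and Prkaca, and within its group's range for Crem and Prkar1a. That library also had the lowest summed markers of vessel lining of its group (268 CPM against 521 to 626) and of Schwann cells (39.9 CPM against 54.7 to 143), and the highest of adipocytes (199.4 CPM against 37.6 to 90.3). Their part in its cAMP gene levels was not tested.

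**Figure D4:**
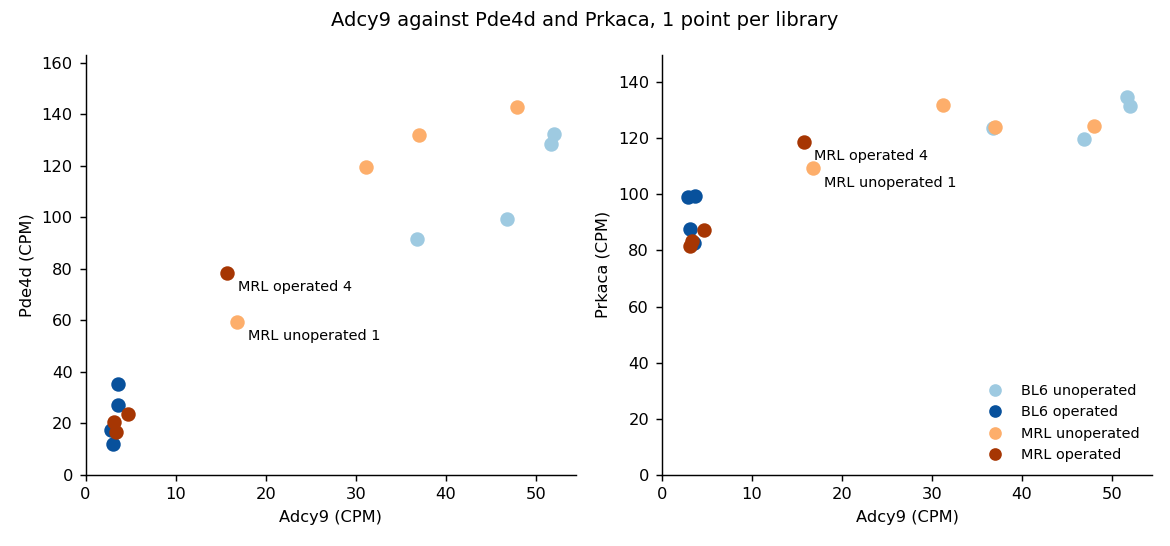
Adcy9 (CPM) against Pde4d (left, CPM) and Prkaca (right, CPM), 1 point per library, axes from 0, colored by group. The in-between MRL libraries, operated replicate 4 and unoperated replicate 1, lie next to each other between the operated and the unoperated libraries in the left panel, at 15.7 and 16.8 CPM of Adcy9.

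Over all 16 libraries, the genes whose log2 CPM followed Adcy9 most closely, of 9663 ranked by Pearson r, were Rprd1a (r = 0.992), Taco1 (0.990), Strn3 (0.989), Efcab14 (0.989) and Pcnx (0.989). After removal of the group means their r with Adcy9 was 0.93 to 0.97. For Crem they were Chrnb1 (0.959), which encodes the beta subunit of the muscle acetylcholine receptor, Fabp4 (0.948), a fatty acid binding protein of adipocytes and capillaries, Plpp1 (0.947), Higd1b (0.942) and Elovl5 (0.939). Here removal of the group means left 0.74 for Chrnb1 and 0.18 to 0.45 for the others. The libraries fall into operated and unoperated clusters, so the values over all libraries include the shift between these clusters. The genes were ranked on the same 16 libraries, deviations within groups included. The values after removal of the group means are therefore not independent of that ranking. For Adcy9, the in-between MRL libraries lay far from the others of their groups.

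Beyond the 9 genes, 81 further genes of the pathway were listed, of which 69 were in the table. In BL6, 54 of the 69 passed after surgery, 35 higher and 19 lower, with a median log2 fold change of 0.46 (0.04 for all genes). In MRL 34 passed, 23 higher and 11 lower, with a median of 0.37 (0.01 for all genes). Without both in-between libraries 44 passed in MRL, 27 higher and 17 lower, where 54.7% of all genes did, and without operated BL6 replicate 4, 53 passed in BL6, 33 higher and 20 lower, where 63.5% did. The counts of 54 and 34 stand beside the 67.9% and 45.0% of all genes that passed, and the lists were not tested as sets. Of all genes, 35.1% were called higher and 32.8% lower in BL6, and 22.3% higher and 22.7% lower in MRL. These shares stand beside the counts of every list and marker set below, and no result about a list is read from its count alone.

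**Figure D5:**
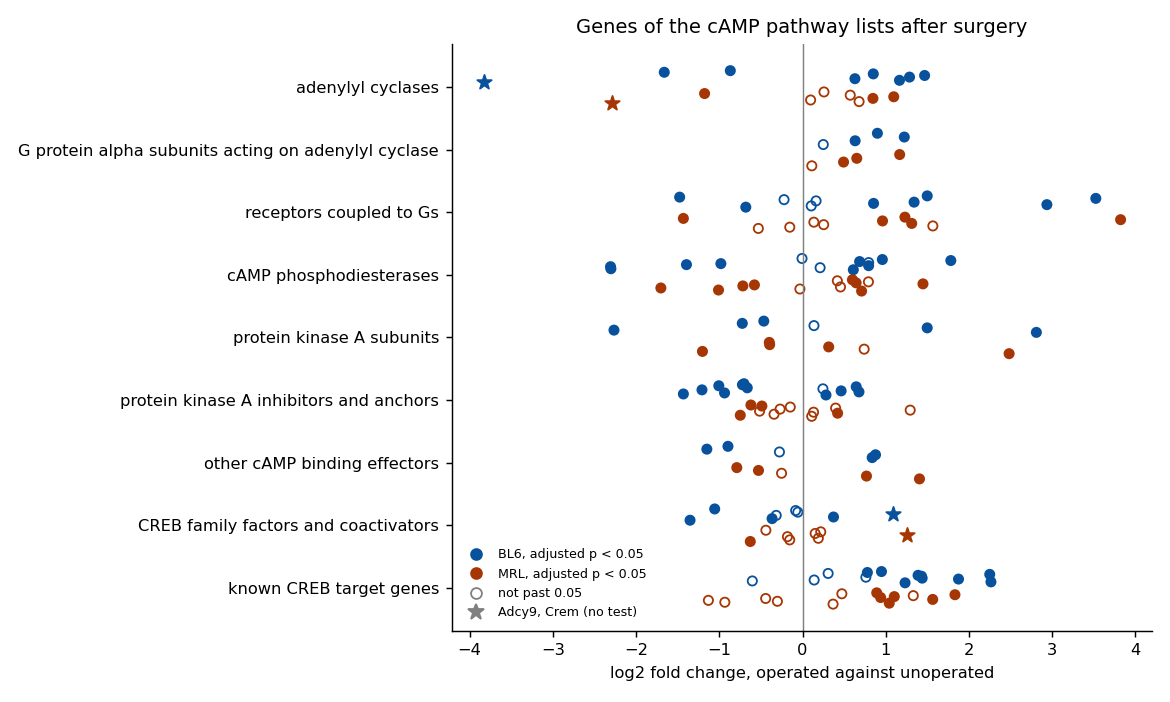
Log2 fold change after surgery of the genes of 9 cAMP pathway lists in BL6 (blue) and MRL (orange), 1 point per gene; filled points passed at an adjusted p under 0.05, open points did not, and stars mark Adcy9 and Crem, which were not tested. Points of the CREB target list that passed all lie above 0, and those of the cyclases, phosphodiesterases and kinase subunits lie on both sides.

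At the top of the pathway, receptors coupled to stimulatory G proteins split by gene. Adrb3, the beta-3 receptor of adipocytes, read 0.3605, 0.431, 0.634 and 0.785 CPM before and 3.27, 1.12, 3.87 and 17.2 CPM after surgery in BL6, and 0.306, 0.409, 0.645 and 1.11 CPM without and 2.395, 1.98, 9.23 and 21.5 CPM with surgery in MRL. Its rise of 3.52 in BL6 (adjusted p = 0.00234) was 2.30 without operated replicate 4, and its rise of 3.82 in MRL (adjusted p = 0.00406) was 2.66 without both in-between libraries. Of 10 receptors, 5 rose and 2 fell in BL6, and 4 rose and 1 fell in MRL.

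Summed adipocyte markers, 4 of 5 of which were in the table, were highest in the same operated libraries as Adrb3: 244.5 CPM in BL6 replicate 4 (21.8 to 63.6 in the others) and 199.4 CPM in MRL replicate 4, against 7.74 to 23.5 CPM without surgery. None of the 4 was at 0 in any library. Prkar2b, the type II beta kinase subunit abundant in fat and brain, showed the same libraries highest, at 4.56, 2.63, 4.65 and 22.3 CPM in operated BL6 and 3.53, 4.405, 12.1 and 32.9 CPM in operated MRL muscle. It rose by 2.81 in BL6 (adjusted p = 0.00334; 1.69 without operated replicate 4) and by 2.48 in MRL (adjusted p = 0.0115), which was 1.61 without both in-between libraries and no longer passed (adjusted p = 0.0628). Pde3b, the phosphodiesterase through which insulin acts in fat, rose by 1.45 in MRL (adjusted p = 0.0310), and by 0.97 without both in-between libraries, where it did not pass (adjusted p = 0.131). In BL6 its difference of 0.79 did not pass (adjusted p = 0.172), and it was 0.06 without operated replicate 4 (adjusted p = 0.911). The part of adipocyte content in these values was not tested.

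Of 6 cyclases beside Adcy9 and Adcy6, 4 rose and 2 fell in BL6, and 2 rose and 1 fell in MRL; without operated BL6 replicate 4, 2 rose and 2 fell in BL6. Adcy2 fell by 1.66 in BL6 (SE 0.192, adjusted p = 1.53e-05) and by 1.18 in MRL (adjusted p = 0.000812; -1.44 without both in-between libraries). Adcy4 rose by 1.47 (adjusted p = 8.89e-05) and 1.10 (adjusted p = 0.00272; 1.25 without those libraries). Of 4 G protein alpha subunits, 3 rose in each strain and none fell; Gnai2, an inhibitory subunit, rose by 1.22 in BL6 (adjusted p = 5.04e-05), and Gnai1, a further inhibitory subunit, by 1.17 in MRL (adjusted p = 0.00258; 1.10 without those libraries).

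Of 9 further phosphodiesterases, 5 rose and 1 fell in BL6, and 4 rose and 1 fell in MRL. The gene that fell was Pde7b, a cAMP-specific enzyme, by 2.30 in BL6 (adjusted p = 4.85e-05) and 1.01 in MRL (adjusted p = 0.0183). It read 34.00, 31.5, 34.96 and 37.3 CPM before and 6.54, 8.06, 5.73 and 7.56 CPM after surgery in BL6, and 16.9, 28.6, 30.9 and 28.5 CPM without and 7.19, 8.497, 9.91 and 26.2 CPM with surgery in MRL. As for Adcy9 and Pde4d, operated MRL replicate 4 was high, and the MRL fall was 1.78 without both in-between libraries (adjusted p = 2.48e-06). Pde1b, which calcium and calmodulin activate, rose by 1.78 in BL6 (adjusted p = 0.000524). Its MRL difference of 0.79 did not pass (adjusted p = 0.0746), and it was 1.19 without both in-between libraries (adjusted p = 0.0169).

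Of 12 kinase inhibitors and anchoring proteins, 7 were lower and 4 higher in BL6, beside 32.8% and 35.1% of all genes. In MRL 3 were lower and 1 higher, beside 22.7% and 22.3% of all genes. Without both in-between libraries 7 were lower and 2 higher in MRL, where 54.7% of all genes passed in either direction. Pkia, the muscle form of the protein kinase inhibitor, went from 589.8, 650.4, 709 and 815 CPM to 243, 318, 275 and 189 CPM in BL6, a fall of 1.43 (adjusted p = 4.29e-05), and fell by 0.75 in MRL (adjusted p = 0.00840; -1.05 without those libraries). Akap8, a nuclear anchoring protein, rose by 0.68 in BL6 (adjusted p = 0.000568) and 0.42 in MRL (adjusted p = 0.0217; 0.57 without them). The cAMP binding effectors outside the kinase split in both strains, 2 up and 2 down of 5. The exchange factors Rapgef3 (0.88 in BL6, adjusted p = 0.000890) and Rapgef4 (1.41 in MRL, adjusted p = 0.000343; 1.55 without them) rose, and the Popeye proteins Popdc2 (-1.15 in BL6, adjusted p = 3.11e-05) and Bves (-0.79 in MRL, adjusted p = 0.00302; -0.96 without them) fell.

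At the end of the pathway, the list of 13 known CREB target genes held 9 that rose and none that fell in BL6, with a median log2 fold change of 1.23, and 6 that rose and none that fell in MRL, with a median of 0.89, beside 35.1% and 22.3% of all genes that were called higher. Without operated BL6 replicate 4, 10 rose and none fell in BL6. In MRL 7 of the targets did not pass. Among these, Nr4a3 (-1.13, adjusted p = 0.169), Ppargc1a (-0.93, adjusted p = 0.181) and Nr4a1 (-0.44, adjusted p = 0.383) lay below 0, and Sik1 (0.37, adjusted p = 0.0811) above it. Without both in-between libraries, 6 rose in MRL and 1 fell, Ppargc1a, a coactivator of mitochondrial genes (-1.76, adjusted p = 0.0197). Nr4a3 was then at -1.67 (adjusted p = 0.0825) and Nr4a1 at -0.75 (adjusted p = 0.175). In BL6, Nr4a3 rose by 1.87 (adjusted p = 0.0275), but the groups overlapped. It read 7.69, 3.18, 2.54 and 3.82 CPM before and 24.3, 30.5, 2.04 and 6.28 CPM after surgery. Operated replicates 1 and 2 were high, and replicates 3 and 4 were not above all unoperated libraries. Rgs2, a brake on G protein signaling, read 5.98, 5.31, 3.75 and 4.38 CPM before and 15.6, 12.5, 25.9 and 39.2 CPM after surgery in BL6, a rise of 2.26 (adjusted p = 0.000155). Fos, an immediate early gene, read 6.02, 6.62, 6.48 and 9.51 CPM without and 29.4, 23.7, 15.2 and 33.6 CPM with surgery in MRL, a rise of 1.83 (adjusted p = 0.00922). In BL6, Fos varied from 3.90 to 30.5 CPM among unoperated libraries and its log2 difference was 0.31 (adjusted p = 0.580). The MRL rise of Fos was 1.59 without both in-between libraries (adjusted p = 0.0347). Targets of this list answer to many other signals as well.

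Markers of some other cell types also rose after surgery, and others did not. Fibroblast markers (Pdgfra, Dcn, Lum, Col1a1 and Col1a2) rose in 2 of 5 genes in BL6 and in none in MRL. Of all genes, 35.1% and 22.3% were called higher. Of 4 erythroid markers none passed in either strain. Of the 2 satellite cell markers in the table, 2 fell in BL6 and 1 in MRL. Macrophage markers rose in 4 of 6 genes in BL6 and in none in MRL. Their sum in MRL was 209 CPM in unoperated replicate 1, an in-between library, and 40.02 to 49.9 CPM in the other unoperated libraries. It was 69.3 to 139.7 CPM after surgery. The same unoperated library also had the highest summed fibroblast markers of its group (2028 CPM, 1085 to 1169 CPM in the others). Counts of marker calls without it are not given here. In BL6 the macrophage sum was 19.5 to 58.9 CPM in unoperated and 83.96, 47.5, 90.1 and 341 CPM in operated libraries. Rgs2 shared this order of the operated BL6 libraries. So did the summed fibroblast markers (1182, 843, 1485 and 5449 CPM) and adipocyte markers (49.04, 21.8, 63.6 and 244.5 CPM), so the order is not particular to macrophage markers. Without operated BL6 replicate 4, the highest library for Rgs2 and these sums, the BL6 rise of Rgs2 was 1.88 (adjusted p = 0.000490). In MRL, Rgs2 rose by 1.04 (adjusted p = 0.0314). Without both in-between libraries its difference was 0.89 and did not pass (adjusted p = 0.0717). All 4 smooth muscle markers rose in both strains, with sums of 81.2 to 122 and 275.1 to 562 CPM in BL6 and 94.2 to 152 and 200.4 to 389 CPM in MRL. Schwann cell markers rose in 4 of 4 genes in BL6 (35.04 to 49.7 and 89.9 to 241 CPM) and 3 of 4 in MRL (25.1 to 53.7 and 39.9 to 143 CPM). No marker of these lists was at 0 in any library, and their part in the levels of the targets was not tested.

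Of the 6 other CREB factors and coactivators, 1 rose and 3 fell in BL6 and 1 fell in MRL (1 rose and 2 fell without both in-between libraries). Ep300, a histone acetyltransferase that CREB recruits, fell by 1.35 (adjusted p = 3.02e-05) and 0.63 (adjusted p = 0.0112; -0.86 without those libraries), and Crtc2 rose by 0.37 in BL6 (adjusted p = 0.00214).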

How the data were processed

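Per the submitters' processing notes, reads were handled with FastQC, STAR and edgeR and the build mm10; versions, the counting program, the annotation and the use of strand are not given in the sources used here. The authors deposited raw counts, read from the values as whole numbers without normalization, and every gene in that table had a mean of at least 1.05 CPM. The authors' deposited table of comparisons gives log2 fold changes, an average log2 CPM, and p-values with false discovery rates, per the file headers.

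Counts were analysed with edgeR 4.0.16 in R 4.3.3. TMM factors, filterByExpr (minimum count 10; 11709 of 11710 genes kept) and a quasi-likelihood fit with 1 mean per group over all 16 libraries gave 5 comparisons, adjusted by Benjamini-Hochberg over all genes and called at an adjusted p under 0.05. CPM values use TMM-scaled library sizes; likeness used log2 CPM with a prior count of 2 and genes of at least 5 CPM. Depth floors and intervals cover counting error or the fitted spread only. On simulated counts for the BL6 comparison (11709 genes), 75% of 2-fold and 97% of 4-fold changes were recovered, and 7.53% of the calls were false. In that simulation 100 genes were changed at each fold and no library stood apart. In the data 67.9% of genes were called, so these rates need not hold for the real comparison.

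The members and the pathway and marker lists were chosen with earlier results of these data known. Of each pathway list the text names the called gene with the largest rise and the largest fall in each strain, of at least 1 CPM, and the 5 genes most like Adcy9 and Crem. Pde4c, Atf1, Ppargc1a, Nr4a1, Nr4a3, Akap11, Calcrl, Sik1 and the strain differences named in the closing part were chosen after their values were seen. Genes of the lists outside the table were not analysed here.

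Of the gene IDs, 11708 of 11710 were found in GENCODE M21 (GRCm38), and exon lengths are from it. The labels' replicate numbers (1 to 4) are the only link between groups: mean correlations of same-numbered deviations lay between -0.14 and 0.17, so the main fit has no replicate block. No replicates agreed within sampling noise. Alternatives were other scalings, filters and tools, DESeq2 1.42.0 and limma 3.58.1 with voom among them, the block, and leaving out libraries; leaving out both in-between MRL libraries was chosen after seeing the data. The result for 1 gene of the receptor list is not reported here.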

Additional observations from a re-analysis of the deposited data

Results flagged for a closer look

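Within each group of 4, the highest and lowest library of each of the 9 genes was compared with its neighbors by Dixon's gap test. Of 36 such sets, 4 stood out, and all 4 were operated MRL replicate 4. The rule flags about 1 in 20 sets by chance. The sets share libraries and some of these genes vary together, so the count of 4 cannot be weighed against that rate. In that library Adcy9 read 15.7 CPM (3.12 to 4.68 in the other 3), Pde4b 64.6 CPM (43.97 to 46.86), Pde4d 78.5 CPM (16.5 to 23.6) and Prkaca 118.8 CPM (81.7 to 87.3). Each was displaced toward the unoperated MRL values. In 73.8% of the 5272 genes that passed after surgery in MRL, this library was the operated one nearest to the unoperated mean. Crem (26.8 CPM), Prkar1a (195.9 CPM) and Creb1 (23.8 CPM) were not out of line there. Why this library differs was not tested.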

How the results depend on the processing

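In BL6 the count of tested members past the threshold was 5 in each left-out library fit and 4 to 5 elsewhere. That of all 78 listed genes was 46 to 61 (61 in the main fit). The surgery counts of listed genes in this paragraph include Adcy9 and Crem, which were chosen for their change. Leaving these 2 out, the main fit gave 59 of 76 in BL6 and 39 of 76 in MRL. In MRL the count of members was 5, 2 with total counts alone and 4 without both in-between libraries; leaving out single libraries gave 2 to 5. The MRL count of listed genes was 41, 29 with total counts alone, 32 to 48 without single libraries and 52 with unoperated MRL replicate 1 and operated BL6 replicate 4 left out. For the interaction, DESeq2 called 1 member and 4 listed genes, and single left-out libraries gave 0 to 1 listed genes, against 0. For MRL against BL6 in unoperated muscle, 5 listed genes became 13 with only the groups compared, 3 with the replicate block, 2 with unoperated MRL replicate 1 and operated BL6 replicate 4 left out, and 2 to 6 without single libraries. In operated muscle 4 became 8 with DESeq2, 2 with genes of at least 5 CPM or only the groups compared, and 2 to 6 without single libraries. The replicate block changed no member's call. The causes were not tested.

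Changes of sign concerned log2 differences that passed no test; the reported values farthest from 0 were those of Pde4d in the interaction (0.60) and in operated strains (0.61). With total counts alone, which moved the median gene from 0.04 to 0.18 in BL6 surgery and from 0.01 to 0.15 between unoperated strains, Creb1 after BL6 surgery was 0.039, the Prkaca interaction -0.0086, and the strain differences 0.087 (Creb1, unoperated), 0.085 (Prkaca, unoperated) and 0.035 (Prkar1a, operated). That scaling moved the share of calls that were higher in MRL from 48.4% to 70.3% in unoperated and from 59.1% to 72.2% in operated muscle. Prkaca in operated strains was -0.0055 with RLE factors, -0.0050 with DESeq2, -0.0149 with voom, -0.0053 with genes of at least 5 CPM, -0.0037 with only the groups compared, -0.0040 without mitochondrial genes, -0.0105 with unoperated MRL replicate 1 and operated BL6 replicate 4 left out and -0.141 without both in-between libraries. Pde4d in unoperated strains was -0.058 with voom, -0.028 with the replicate block and -0.0078 without mitochondrial genes. Without both in-between libraries the interaction was -0.39 for Pde4d and -0.12 for Prkaca, and Pde4d in operated strains was -0.18.

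Single left-out libraries gave ranges of -0.171 to 0.000301 for Creb1 after BL6 surgery, -0.133 to 0.207 for Pde4d in unoperated strains, -0.178 to 0.897 for the Pde4d and -0.0764 to 0.123 for the Prkaca interaction, and, in operated strains, -0.182 to 0.903 for Pde4d, -0.141 to 0.066 for Prkaca and -0.0492 to 0.0121 for Prkar1a. With 4 libraries a group, the 95% interval of the Pde4d interaction ran from -0.73 to 1.94 on the log2 scale.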

Other observations

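In the 78 listed cAMP genes of the table, strain differences were few. Without surgery 5 passed between MRL and BL6, where 10.4% of all genes did, 3 of them higher and 2 lower in MRL. Beside Adcy6 these were Nr4a3, an orphan nuclear receptor and CREB target, at 7.69, 3.18, 2.54 and 3.82 CPM in BL6 and 38.97, 31.97, 39.7 and 121 CPM in MRL (log2 difference 3.76, adjusted p = 0.00310), Rgs2 (1.24, adjusted p = 0.0464), the anchoring protein Akap11 (-0.52, adjusted p = 0.0352) and Popdc2 (-0.54, adjusted p = 0.0337). For Nr4a3 the groups did not overlap, and unoperated MRL replicate 4 was the highest library. Unoperated MRL replicate 1, an in-between library, was the highest of its group for Rgs2 (15.04 CPM). It was the lowest of its group for Akap11 (15.13 CPM) and Popdc2 (49.9 CPM). Without that library the count of 5 was 2.

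After surgery 4 passed, where 12.9% of all genes did (59.1% of those higher in MRL). All 4 were higher in MRL: the cyclase Adcy1 (1.93, adjusted p = 0.000178), the phosphodiesterase Pde10a (1.12, adjusted p = 0.00404), Atf1 (0.67, adjusted p = 0.0225) and Calcrl, a receptor for calcitonin gene-related peptide and adrenomedullin (0.65, adjusted p = 0.0444). Calcrl read 20.3, 14.5, 11.8 and 14.3 CPM before and 14.8, 14.8, 9.59 and 13.02 CPM after surgery in BL6, and 8.803, 9.97, 11.6 and 11.7 CPM without and 22.7, 19.1, 26.3 and 14.1 CPM with surgery in MRL. It rose in MRL by 0.96 (adjusted p = 0.00287; 1.03 without both in-between libraries), and its BL6 difference was -0.22 (adjusted p = 0.337). The interaction of Calcrl was 1.18, with an adjusted p of 0.103 by edgeR, and DESeq2 placed its interaction and those of Adcy6, Akap11 and Sik1 past the threshold.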
